A study of Mus musculus with 6 samples.

Results

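Regulatory T cells (Treg cells) in which no transcript of the chemokine receptor gene Ccr8 was read were described here in subcutaneous MC38 tumours of mice labelled as lacking or retaining Ctcf in Treg cells. They numbered 431 of 1840 Treg cells, of 4027 CD4 T cells with a T cell receptor β chain and of 39424 cells that passed filters, out of 41679 barcodes. A member had at least 1 Cd4 UMI (unique molecular identifier, 1 per captured transcript), no Cd8a or Cd8b1 UMI, a productive β chain (TRB), UMIs of at least 2 of the 5 genes Foxp3, Ikzf2, Il2ra, Ikzf4 and Lrrc32, and no Ccr8 UMI. Members were thus chosen by the measured counts of these 9 genes, so their levels are given as a description with no test. The cko samples held 64, 103 and 56 members, 223 in all, and the ctr samples held 52, 62 and 94, 208 in all.

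Treg cells are CD4 T cells that damp immune responses, a state held by the transcription factor FOXP3. CCR8, a receptor for chemokines such as CCL1, is carried by most activated Treg cells of tumours and by few Treg cells of blood. CTCF binds DNA at fixed sites and, with the cohesin ring, sets the borders of chromatin loops and so which enhancers meet which promoters.

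Cells positive for CD45, the surface protein of leukocytes, had been sorted alive from tumours on day 25 after wild-type MC38 cells, a colon adenocarcinoma line, were placed under the skin. The 3 cko samples came from mice with a tamoxifen-inducible knockout of Ctcf, labelled as Ctcf knockout in Tregs, and the 3 ctr samples from mice labelled as Ctcf WT in Tregs. Both groups carried wild-type MC38 tumours. The driver of the knockout, the exons it removes and the age and sex of the mice are not given in the sources used here.

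The deposited matrices held 45322797 to 53473461 UMIs in the cko samples and 54224947 to 55515267 in the ctr samples. Members were shallower than Ccr8-positive Treg cells. Their median was 4460, 5137 and 5621.5 UMIs per cell in the cko samples and 4483, 5865 and 5095.5 in the ctr samples, while the 6 medians of Ccr8-positive Treg cells ran between 6012 and 7784. The members' counts summed per sample came to 346333, 943800 and 384117 in the cko samples and 294648, 423090 and 565007 in the ctr samples. All levels below are CPM, counts scaled to a common total. For levels per sample, the totals were first adjusted by TMM scaling among the samples, done separately in each class of cells.

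Cko samples 1 and 3 shared T cell clones. A clonotype is here a pair of α and β chains with identical V genes, J genes and nucleotides in CDR3, the loop that contacts antigen. The 2 samples held 31 Treg clonotypes in common, 6 of them among members, and these 6 covered 12 members of cko 1 and 9 of cko 3. Among the other 14 pairs of samples, ctr 1 and ctr 2 shared 1 Treg clonotype and no pair shared a clonotype among members. Shared cell barcodes did not go along with this: cko 1 and cko 3 had 16 barcodes of receptor-bearing cells in common, other pairs had 5 to 23, and no pair shared a barcode of a member. Whether the 2 samples hold cells of the same mouse was not tested, and several results are also given with these 2 samples added together as 1.

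The CDR3 sequences of 3 clonotypes are shown because they are the tags by which members were tied to Ccr8-positive cells and cko 1 to cko 3. Each is read 5′ to 3′ from the deposited contigs, and capitals mark the bases between the start shared by most CDR3s of the same V gene and the end shared by most of the same J gene. Clonotype A, with TRAV14D-3-DV8, TRAJ43, TRBV1 and TRBJ1-1, was the largest among members and was found in ctr 3, with 8 members and 15 Ccr8-positive Treg cells. Clonotype B, with TRAV6-3, TRAJ22, TRBV26 and TRBJ1-2, had 3 members and 1 Ccr8-positive cell in cko 1 and 4 members and 2 Ccr8-positive cells in cko 3. Clonotype C, with TRAV14D-1, TRAJ9, TRBV20 and TRBJ2-5, had 4 members and 10 Ccr8-positive cells in cko 1 and 1 member and 9 Ccr8-positive cells in cko 3. The α chain genes lie on chromosome 14 and the β chain genes on chromosome 6.
Clonotype A, TRA: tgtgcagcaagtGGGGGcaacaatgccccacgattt
Clonotype A, TRB: tgcacctgcagtgGAacagaagtcttcttt
Clonotype B, TRA: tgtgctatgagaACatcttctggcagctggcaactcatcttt
Clonotype B, TRB: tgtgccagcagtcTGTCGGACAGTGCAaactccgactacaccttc
Clonotype C, TRA: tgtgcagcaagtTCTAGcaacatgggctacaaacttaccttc
Clonotype C, TRB: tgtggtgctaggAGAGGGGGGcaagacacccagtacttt
In clonotype A the capitals are 5 bases of the α and 2 bases of the β chain.

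The members carried Treg genes that the rule did not use. Ctla4, the inhibitory receptor of Treg cells, stood at 1301, 681 and 1472 CPM in the cko samples, against 1501, 945 and 1057 CPM in the ctr samples. Conventional CD4 cells, taken as receptor-bearing CD4 cells with none of the 5 Treg genes and no Ccr8, had 523, 245 and 374 CPM in the cko samples, against 332, 316 and 275 CPM in the ctr samples. Tnfrsf18, which encodes the costimulator GITR, stood at 1053, 511 and 1027 CPM in the cko samples, against 1328, 1182 and 1199 CPM in the ctr samples, against 200.5 to 452 CPM in conventional CD4 cells of the 6 samples. Both genes were higher in members than in conventional cells in each of the 6 samples, and Gpr83, another Treg marker, was at 0 to 5.63 CPM in members. Il7r, the interleukin-7 receptor of resting T cells, was read at 159 to 275 CPM in members and 335 to 701 CPM in conventional cells. The conventional class rests on zeros, and Foxp3 was read in only 33.6% of members, so that class may hold Treg cells. Its summed Treg identity genes were at 3435 to 6435 CPM in cko and 4646 to 4966 CPM in ctr samples. In members they were at 6484 to 10290 CPM and 9965 to 10830 CPM. How many Treg cells the class holds was not tested.

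Foxp3 itself had at least 1 UMI in 145 members (33.6%), Ikzf2 in 92.3%, Il2ra in 72.4%, Ikzf4 in 41.8% and Lrrc32 in 22.7%. Foxp3 stood at 90.1, 61.7 and 88.1 CPM in the cko samples, against 78.1, 80.4 and 73.4 CPM in the ctr samples, so the genotypes overlapped. Just at the threshold stood 229 members with exactly 2 Treg genes, and just outside it 358 CD4 cells with 1 Treg gene and no Ccr8. On the Ccr8 side, 251 Treg cells (13.6%) had 1 Ccr8 UMI and 1158 (62.9%) had 2 or more. Over ctr Treg cells with 0, with 1 and with 2 or more Ccr8 UMIs, summed over samples, S1pr1 was at 26.5, 18.5 and 7.99 CPM, Klf2 at 363, 268 and 181 CPM, Tnfrsf9 at 1043, 1326 and 1526 CPM and Cd81 at 202, 317 and 490.0 CPM. Cells with 1 UMI lay between the other two classes for these 4 genes in ctr, but not for Ccr2, at 139, 152 and 68.5 CPM. In cko Treg cells they lay between for S1pr1 (70.5, 49.1 and 22.2 CPM) and Klf2 (327, 193 and 165 CPM), but not for Tnfrsf9 (1039, 1389.7 and 1303 CPM) or Cd81 (133, 131 and 176 CPM).

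A larger share of Treg cells lacked Ccr8 in cko than in ctr tumours. Since a zero depends on depth, cells of at least 2500 UMIs were thinned to 2500 and the rule was applied again, leaving out 104, 188 and 58 shallower receptor-bearing cells in cko and 129, 55 and 201 in ctr samples. Treg cells without Ccr8 then made up 61.8% of 68 Treg cells (Wilson 95% interval 49.9 to 72.4), 65.3% of 72 (53.8 to 75.2) and 55.6% of 81 (44.7 to 65.9) in cko samples 1 to 3. In ctr samples 1 to 3 they made up 21.2% of 151 (15.4 to 28.4), 33.3% of 204 (27.2 to 40.1) and 37.4% of 219 (31.3 to 44.0). All 3 cko samples were above all 3 ctr samples, with means of 60.9% ± 4.92 and 30.7% ± 8.45 (SD, n = 3 each). The difference was 30.2 percentage points, given with no test because the rule reads Ccr8. With cko 1 and cko 3 added together it was 31.2. The 6 intervals cover counting error only.

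Depth changed the size of this difference, but at each depth all cko samples stayed above all ctr samples. Without thinning the shares were 39.5, 49.5 and 28.0% in cko and 13.9, 15.2 and 19.3% in ctr samples, a difference of 22.9 points. At 1500 UMIs they were 61.3, 70.0 and 66.7% in cko and 41.6, 40.6 and 46.2% in ctr samples, and at 4000 UMIs 43.2, 61.4 and 44.9% in cko and 16.4, 23.4 and 21.8% in ctr samples.

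**Figure D1:**
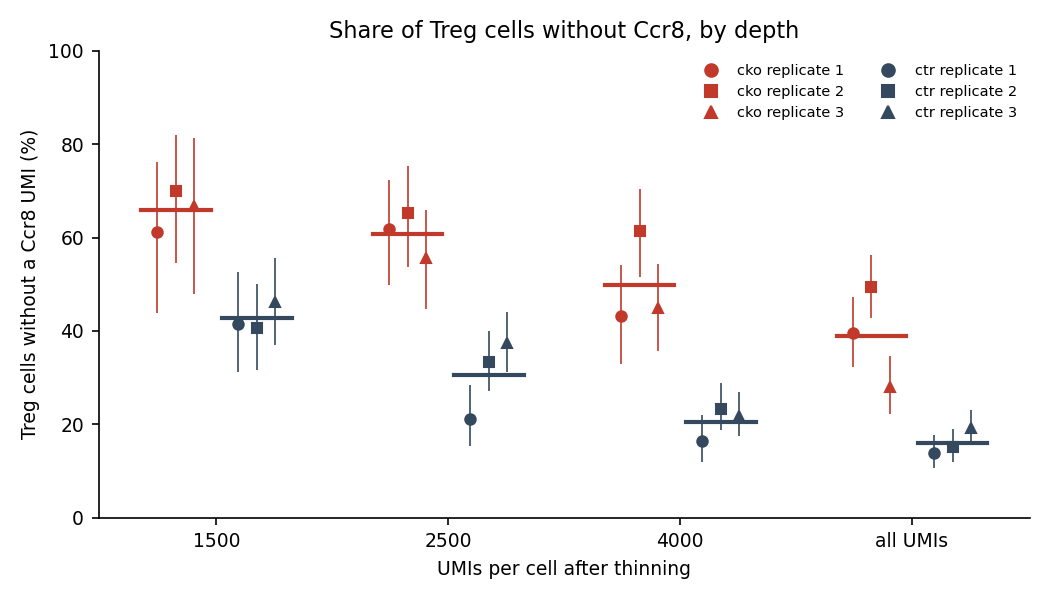
Share of Treg cells with no Ccr8 UMI (percent, vertical axis) at 1500, 2500 and 4000 UMIs per cell and without thinning (horizontal axis), one marker per cko or ctr sample, with Wilson 95% intervals as bars and a line at the mean of each group. At each depth the 3 cko samples lie above the 3 ctr samples.

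Levels in CD8 T cells, most of which should lack Ccr8, are given beside these shares. Whether their Ccr8 UMIs are free RNA or their own transcript was not tested. At 2500 UMIs, at least 1 Ccr8 UMI was found in 8.65, 12.3 and 9.27% of CD8 T cells in cko samples and in 17.0, 14.1 and 13.3% in ctr samples. Treg cells had one in 38.2, 34.7 and 44.4% in cko and in 78.8, 66.7 and 62.6% in ctr samples, above the CD8 cells of the same sample each time. Before thinning the CD8 cells had medians of 7097 to 7805 UMIs in cko and 7723.5 to 8956 in ctr samples, deeper than the Treg cells. In CD4 cells without any of the 5 Treg genes the share was 55.1, 26.1 and 48.8% in cko and 53.1, 40.8 and 37.9% in ctr samples, so it overlapped between genotypes and in cko 1 and cko 3 was above that of Treg cells. In CD4 cells with 1 Treg gene it was 59.0, 27.9 and 57.9% in cko and 71.7, 64.4 and 61.1% in ctr samples. There too cko 1 and cko 3 were above the Treg cells of the same sample, and cko 2 was below. Treg genes were counted after thinning, so both classes may hold Treg cells.

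Members were not clearly more numerous in cko tumours. They formed 11.3, 15.6 and 8.14 of 100 receptor-bearing CD4 cells in cko samples and 7.94, 11.1 and 10.5 in ctr samples, which overlap. The means were 11.7 ± 3.72 and 9.83 ± 1.66 (SD, n = 3 each; exact permutation p = 0.4, two-sided, where 3 samples against 3 allow no p under 0.1). Of 100 kept cells they formed 0.936, 1.68 and 0.808 in cko and 0.811, 1.06 and 1.29 in ctr samples (exact permutation p = 0.9). The differences of means, cko minus ctr, were 1.85 per 100 CD4 cells and 0.0873 per 100 kept cells. With cko 1 and cko 3 added together they were 2.74 and 0.222. In contrast, Ccr8-positive Treg cells numbered 98, 105 and 144 in cko and 322, 347 and 393 in ctr samples.

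Against Ccr8-positive Treg cells of the same samples, S1pr1, Klf2, Ccr2 and Cxcr3 were higher in members, and Ccr7, Tnfrsf4, Tnfrsf9, Nr4a1, Nr4a2 and Nr4a3 were lower. Of 8754 genes tested, 92 were higher (1.05%) and 133 lower (1.52%) in members at an adjusted p under 0.05, 2.57% together, and 8.84% of all tested genes had the same sign in all 6 samples. The edgeR fit kept each sample as a block, and rises and falls written as numbers are on the log2 scale throughout. S1pr1, the sphingosine-1-phosphate receptor that lets T cells leave tissue, was at 53.5, 91.0 and 37.8 CPM in cko and 37.4, 18.9 and 27.5 CPM in ctr members, against 28.1, 41.5 and 12.6 CPM in cko and 5.62, 7.21 and 14.4 CPM in ctr Ccr8-positive cells. It was higher in members in all 6 samples (log2 fold change 1.26, SE 0.22, adjusted p = 0.00138). Klf2, the factor that drives S1pr1 transcription, was at 199.9, 439 and 179 CPM in cko and 319, 184 and 538 CPM in ctr members, against 59.5, 349 and 73.5 CPM in cko and 161, 119 and 294 CPM in ctr Ccr8-positive cells, again higher in each sample (log2 fold change 0.86, SE 0.15, adjusted p = 0.0191). Klf3, a related factor, and Tcf7, which encodes TCF1 of resting and memory T cells, were higher as well, with log2 fold changes of 1.30 and 0.88 (adjusted p = 0.0198 and 0.0191).

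Among the chemokine receptors that bring T cells to inflamed tissue, Ccr2 was at 431, 132 and 403 CPM in cko and 95.1, 206 and 116 CPM in ctr members, against 152, 101 and 183 CPM in cko and 68.9, 96.1 and 66.9 CPM in ctr Ccr8-positive cells (log2 fold change 0.89, SE 0.13, adjusted p = 0.000793). Cxcr3, the receptor of interferon-induced chemokines, was at 217, 126 and 143 CPM in cko and 149, 168 and 123 CPM in ctr members, against 108, 58.9 and 98.6 CPM in cko and 55.4, 99.1 and 89.7 CPM in ctr Ccr8-positive cells (log2 fold change 0.82, SE 0.12, adjusted p = 0.000309). Both were higher in members in all 6 samples. Ccr7, which guides cells to lymph nodes, went the other way. It was at 98.6, 146 and 62.9 CPM in cko and 61.1, 54.4 and 91.8 CPM in ctr members, against 288, 284 and 249.8 CPM in cko and 248, 180.2 and 214 CPM in ctr Ccr8-positive cells, lower in every sample without overlap between the classes (log2 fold change -1.53, SE 0.12, adjusted p = 6.11e-08). The 18 tested chemokine and lipid receptors, among which S1pr1, Ccr2 and Cxcr3 rose and Ccr7 fell, had a median log2 fold change of -0.01, as for all genes (-0.01). Of 18 resting and homing genes, 4 rose (S1pr1, Klf2, Tcf7 and Ms4a4b) and Ccr7 fell, with a median of 0.36.

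Some genes that follow T cell receptor signals were lower in members and others were higher. Tnfrsf4, the costimulator OX40, was at 1248, 813 and 1266 CPM in cko and 1569, 1132 and 1131 CPM in ctr members, against 1720.3, 1056 and 1576 CPM in cko and 1948, 1560.2 and 1422 CPM in ctr Ccr8-positive cells, lower in all 6 samples (log2 fold change -0.42, SE 0.07, adjusted p = 0.000653). Tnfrsf9, the costimulator 4-1BB, fell by 0.38 on the log2 scale (adjusted p = 0.00563). The orphan receptors Nr4a1, Nr4a2 and Nr4a3, early targets of T cell receptor signals, fell by 0.50, 0.68 and 0.76, and were the 3 lower genes among 23 tested genes of T cell receptor and activation signalling. In the same list Cd69, the early activation marker that holds T cells in tissue, and Ltb, which encodes lymphotoxin β, rose by 0.39 and 0.31, and the list's median was -0.12. Of 27 other Treg identity genes 3 fell (Tnfrsf4, Batf and Cd83) and none rose, with a median of -0.02, so most of the Treg programme did not pass the test in either direction. Of 34 tumour effector Treg genes 5 fell (Tnfrsf9, Lag3, Id2, Lgals1 and Tff1), Fgl2 and Cxcr3 were among those that rose, and the median was -0.20. Fgl2, which encodes a secreted suppressive protein, rose by 0.59 (adjusted p = 0.0151).

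The 22 tested cell cycle genes all lay below 0 (median -0.52) and 6 of them fell, namely Mcm2, Mcm3 and Mcm6 of the replicative helicase, Tk1 of thymidine salvage, Stmn1 and Tubb5. Tk1 was at 28.2, 96.4 and 17.6 CPM in cko and 30.6, 18.9 and 25.7 CPM in ctr members, against 54.1, 124 and 50.4 CPM in cko and 95.9, 63.4 and 61.2 CPM in ctr Ccr8-positive cells (log2 fold change -1.08, SE 0.17, adjusted p = 0.000653). Of 28 interferon response genes 9 rose and none fell (median 0.35). They were the transcription factors Irf1 and Irf7, the class I activator Nlrc5 and the GTPase genes Gbp3, Gbp4, Gbp7, Irgm1, Ifi47 and Igtp. Gbp4 rose by 0.55 (adjusted p = 0.0105) and Irf1 by 0.45 (adjusted p = 0.0198). Guanylate-binding protein genes are near-identical in parts, so reads may be split among them. Of the stress genes Hsph1 and Dnajb1 rose, 2 of 21 with a median of 0.10, and of 22 helper and effector genes only Hopx fell (median -0.12).

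Among the named genes, the largest falls belonged to genes of low level. Slc17a6, a vesicular glutamate transporter gene, fell by 2.89 (adjusted p = 0.000498), Tff1 of the trefoil peptides by 2.52 (adjusted p = 0.00022) and Lgals7, a galectin gene, by 1.98 (adjusted p = 9.18e-06). Lgals7 stood at 14.1, 21.7 and 7.55 CPM in cko and 3.40, 4.73 and 9.18 CPM in ctr members, against 49.7, 82.3 and 29.4 CPM in cko and 18.4, 13.2 and 38.1 CPM in ctr Ccr8-positive cells. It was lower in members in all 6 samples, and so were Ccn4, Ccdc184 and the replication gene Gins2, which fell by 1.17, 1.12 and 1.10. Ifi208, an interferon-inducible gene, and Tmem140 were higher in all 6 samples, by 0.89 and 0.76. The same sign in all 6 samples was a condition for naming these genes.

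The calls against Ccr8-positive cells changed with the depth setting, and members had fewer UMIs per cell. Among cells of 4000 to 8000 UMIs, a range set after the data were seen, 37 genes passed, 19 of them among the 225, and 192 of the 202 tested again kept their sign. There Tnfrsf4 (-0.45), Nr4a2 (-0.81), Nr4a3 (-1.11) and Txnip (0.60) still passed. S1pr1 (1.72, adjusted p = 0.0736), Cxcr3 (0.69, adjusted p = 0.0574), Ccr2 (0.44, adjusted p = 0.222) and Ccr7 (-0.63, adjusted p = 0.206) kept their direction without passing. The interferon median was 0.18 over 26 genes, with 1 gene higher and 1 lower, and the cell cycle median was -0.06 over 8. With cells of at least 2500 UMIs thinned to 2500, 7 genes passed, 4 of them among the 225. Of the 174 tested again, 138 kept their sign. The rule was applied again after thinning, so cells could change class or leave the Treg cells. In ctr 2, for example, 62 of 409 Treg cells were members before thinning and 68 of 204 after it. Depth and class membership are thus not separated in that setting. Ccr2 (0.89), Nr4a3 (-1.08) and Cd83 (-1.13) were among the 7 genes that passed. The medians were 0.08 for interferon and 0.51 for the 7 cell cycle genes tested. With cko 1 and cko 3 added together 173 genes passed, 162 of them among the 225. Over all alternative settings Klf2 passed in 7 of 15, Tcf7 in 7 of 14, Klf3 in 6 of 13 and Tnfrsf9 in 9 of 15. The log2 fold change ran from 0.23 to 1.03 for Klf2 and from -0.47 to -0.12 for Tnfrsf9.

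**Figure D2:**
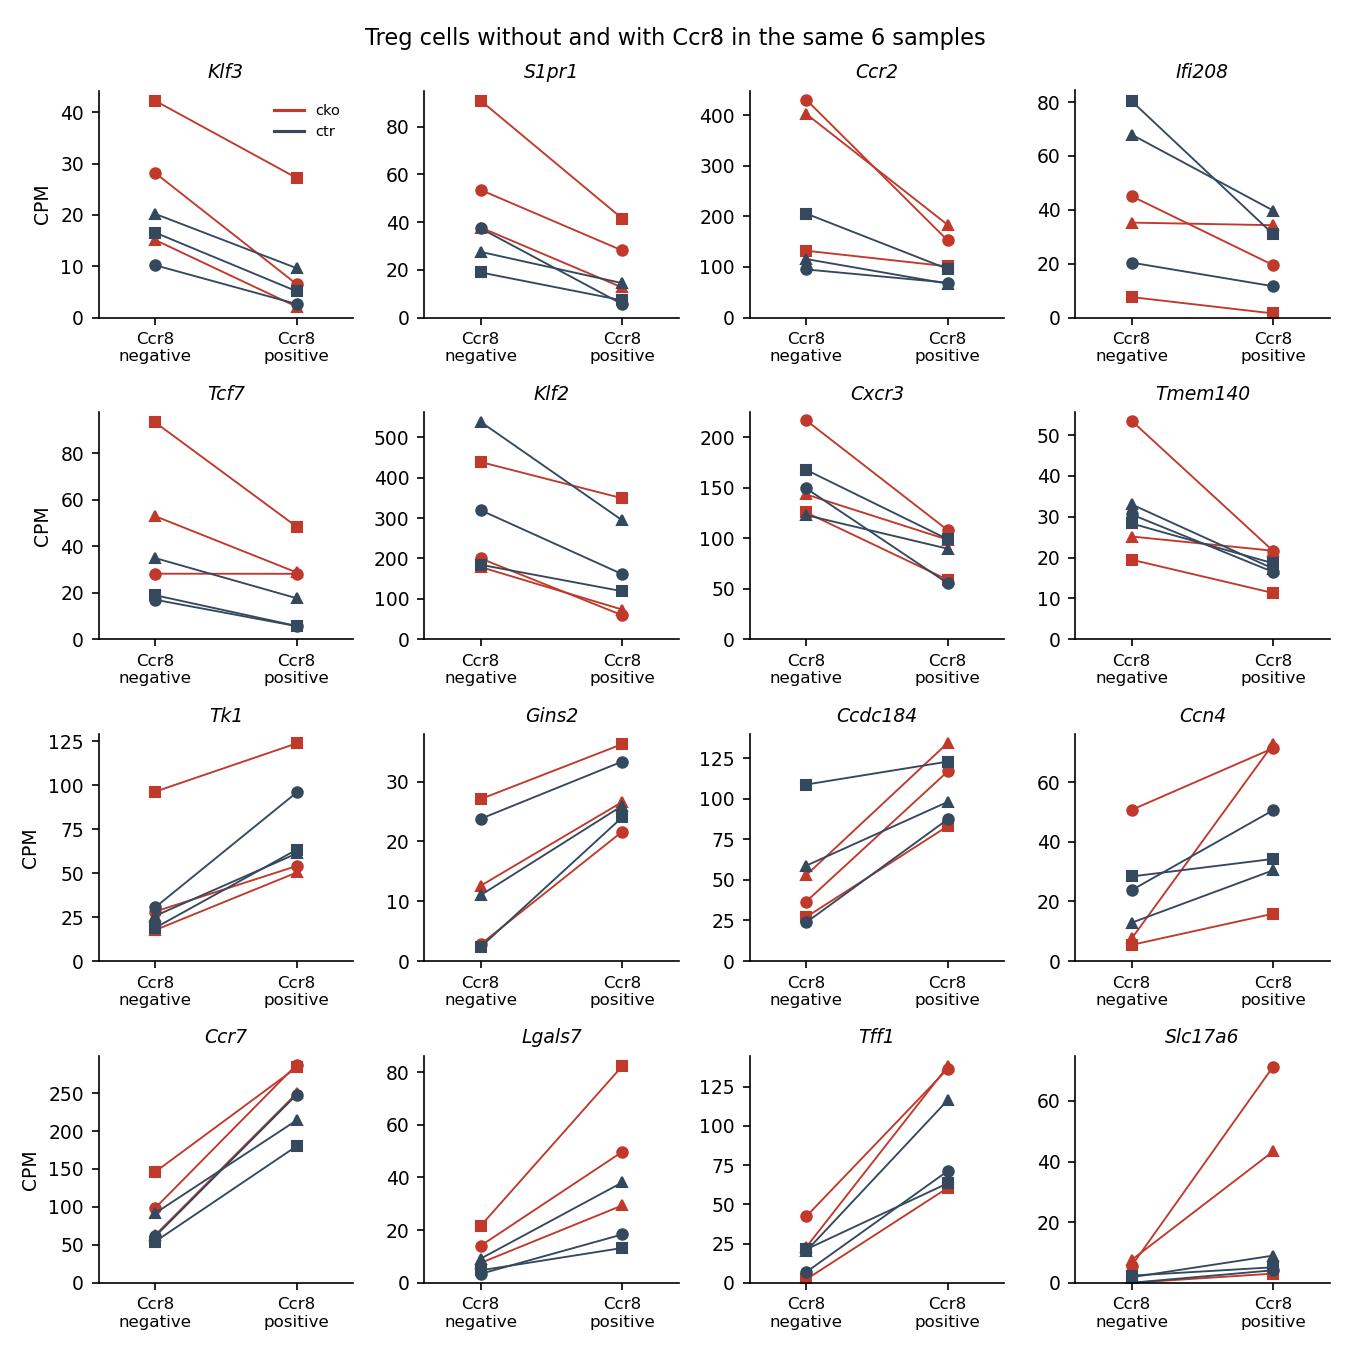
Level in CPM (vertical axis) of the 8 genes with the largest rise and the 8 with the largest fall that had the same sign in all samples, in Treg cells without Ccr8 (left) and with Ccr8 (right), each line joining the 2 classes of 1 sample, colours for cko and ctr. S1pr1, Ccr2 and Cxcr3 slope down to the right in all 6 samples and Ccr7 slopes up.

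The targeted gene was read at an overlapping level in both genotypes. Ctcf, on chromosome 8 (GRCm38, 105636568 to 105682922), stood at 50.7, 96.4 and 70.5 CPM in the cko samples, against 98.5, 96.9 and 84.4 CPM in the ctr samples. Cko 1 and cko 3 were below every ctr sample and cko 2 was at the ctr level (log2 fold change -0.32, SE 0.26, adjusted p = 0.757). In Ccr8-positive Treg cells the log2 fold change was -0.43 (adjusted p = 0.325) and in conventional CD4 cells, which the labels do not name as a target, 0.28 (adjusted p = 0.939). Reads were taken at the 5′ end of transcripts and the removed exons are not given, so this level does not show whether the gene was cut.

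Between cko and ctr members, 4 genes rose and 17 fell of 5096 tested. These are 0.0785% and 0.334% of the tested genes, 471 genes had an unadjusted p under 0.05, and in 15.0% of all tested genes the groups did not overlap. Genes named for the size of their change were taken only where the groups did not overlap, so that trait is no added support. Summed counts cannot tell fewer cells with a transcript from less transcript per cell. The median log2 fold change over all genes was 0.02. The balance of directions was not stable. It was 37 higher and 27 lower without cko 2, 29 and 22 among cells of 4000 to 8000 UMIs, and 15 and 11 of 1820 tested with cells of at least 2500 UMIs thinned to 2500, where 3 of the calls were among the 21 and 12 of 12 tested again kept their sign.

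Gpr18, a G protein-coupled receptor of lymphocytes that responds to lipids, had the largest rise. It stood at 50.7, 42.2 and 42.8 CPM in the cko samples, against 0, 2.36 and 11.0 CPM in the ctr samples, and every cko sample was above every ctr sample (log2 fold change 2.97, SE 0.54, adjusted p = 0.032). It was found in 8, 24 and 13 members of the cko samples and in 0, 1 and 6 of the ctr samples. Gpr18 passed in 6 of 13 alternatives. Its log2 fold change was 4.75 without ctr 3 (adjusted p = 0.0240) and 2.63 without possible doublets (adjusted p = 0.0915). Gpr18 lies on the minus strand of chromosome 14 (GRCm38, 121911253 to 121915781) within Ubac2 on the plus strand (121878620 to 122021034), and the sources used here do not give whether counting used the strand. Dad1, a subunit of the oligosaccharyltransferase that adds sugars to proteins, stood at 1619, 1097 and 1261 CPM in the cko samples, against 618, 477 and 494 CPM in the ctr samples (log2 fold change 1.31, SE 0.21, adjusted p = 0.0207). Every cko sample was above every ctr sample. Dad1 lies on the minus strand of chromosome 14 (54235479 to 54254104), 11272 bases beyond the end of Trac, the constant gene of the T cell receptor α chain.

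Tomm20, a receptor of the mitochondrial import complex, stood at 399.9, 393 and 307 CPM in the cko samples, against 146, 118 and 162 CPM in the ctr samples (log2 fold change 1.35, SE 0.21, adjusted p = 0.0202). Gramd3 was at 129.5, 91.0 and 141 CPM in the cko samples, against 37.4, 28.4 and 45.9 CPM in the ctr samples (log2 fold change 1.64, SE 0.28, adjusted p = 0.0234). Neither gene overlapped between genotypes. In Ccr8-positive Treg cells Gpr18 and Gramd3 passed as well, with log2 fold changes of 2.53 (adjusted p = 0.00564) and 1.56 (adjusted p = 0.0127), while in conventional cells Gpr18 was at 1.07 (adjusted p = 0.917). That comparison called 21 of 9347 genes higher (0.225%) and 49 lower (0.524%), 0.749% together. The one in conventional cells called 3 of 6386 higher (0.047%) and 9 lower (0.141%), 0.188% together.

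Several heat shock and immediate stress genes were lower in cko members. Atf3, a stress-induced transcription factor, stood at 22.5, 35.7 and 20.1 CPM in the cko samples, against 139, 179.6 and 356 CPM in the ctr samples (log2 fold change -3.04, SE 0.38, adjusted p = 0.0165). Every cko sample was far below every ctr sample. Hspa1b, which encodes an inducible HSP70 chaperone, was at 763, 548 and 632 CPM in the cko samples, against 1739, 2385 and 2463 CPM in the ctr samples (log2 fold change -1.78, SE 0.20, adjusted p = 0.00333), and its co-chaperone gene Dnajb1 at 338, 224 and 227 CPM in the cko samples, against 897, 640.5 and 874 CPM in the ctr samples (log2 fold change -1.63, SE 0.23, adjusted p = 0.0148). The genotypes did not overlap for either. Hspa1a and Hspa1b are near-identical copies whose reads may be split, and Hspa1a fell by 1.85 (adjusted p = 0.0207). Bag3, a co-chaperone gene, fell by 1.68 and Hsph1, of the HSP110 family, by 1.02.

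Of the 21 tested genes of the dissociation stress list, 5 fell and none rose, with a median of -0.58, and the summed level of the list was 17369, 14902 and 16461 CPM in cko and 20852, 22029 and 27599 CPM in ctr members. Stress genes also fell in the other classes. In Ccr8-positive Treg cells 4 of 21 fell (median -0.43) and in conventional CD4 cells 5 of 21 (median -0.65), with Dnajb1 among them in both. How far these transcripts arose during handling of the tissue was not tested, and a difference in handling cannot be told apart from genotype.

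The other lower genes had mixed roles. Izumo1r, the folate receptor FR4 of Treg cells, stood at 84.5, 127 and 95.6 CPM in the cko samples, against 265, 215 and 352 CPM in the ctr samples (log2 fold change -1.43, SE 0.24, adjusted p = 0.0213), without overlap. It also fell in Ccr8-positive Treg cells (-1.83, adjusted p = 0.00564) and was at 0.10 in conventional cells. Txnip, the inhibitor of thioredoxin that is induced by glucose, stood at 64.8, 72.6 and 83.1 CPM in the cko samples, against 312, 239 and 145 CPM in the ctr samples (log2 fold change -1.66, SE 0.28, adjusted p = 0.0234). Bmyc, a relative of Myc, was at 70.4, 34.7 and 25.2 CPM in the cko samples, against 204, 158 and 116 CPM in the ctr samples (log2 fold change -1.92, SE 0.35, adjusted p = 0.0455). For both, all cko samples were below all ctr samples. Alox5ap, which activates 5-lipoxygenase, fell by 2.93 (-2.21 without cko 2 and -4.05 without cko 3), Gsn of actin severing by 2.23, the kinase gene Sgk1 by 2.03, the creatine kinase gene Ckb by 1.89 and the phosphatase gene Mdp1 by 1.51. Cd200r1, an inhibitory receptor gene, Ube2l6 of ISG15 conjugation and the small GTPase gene Rhob complete the 17, with falls of 1.32, 1.50 and 1.40; these 3 were named after their values were seen.

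**Figure D3:**
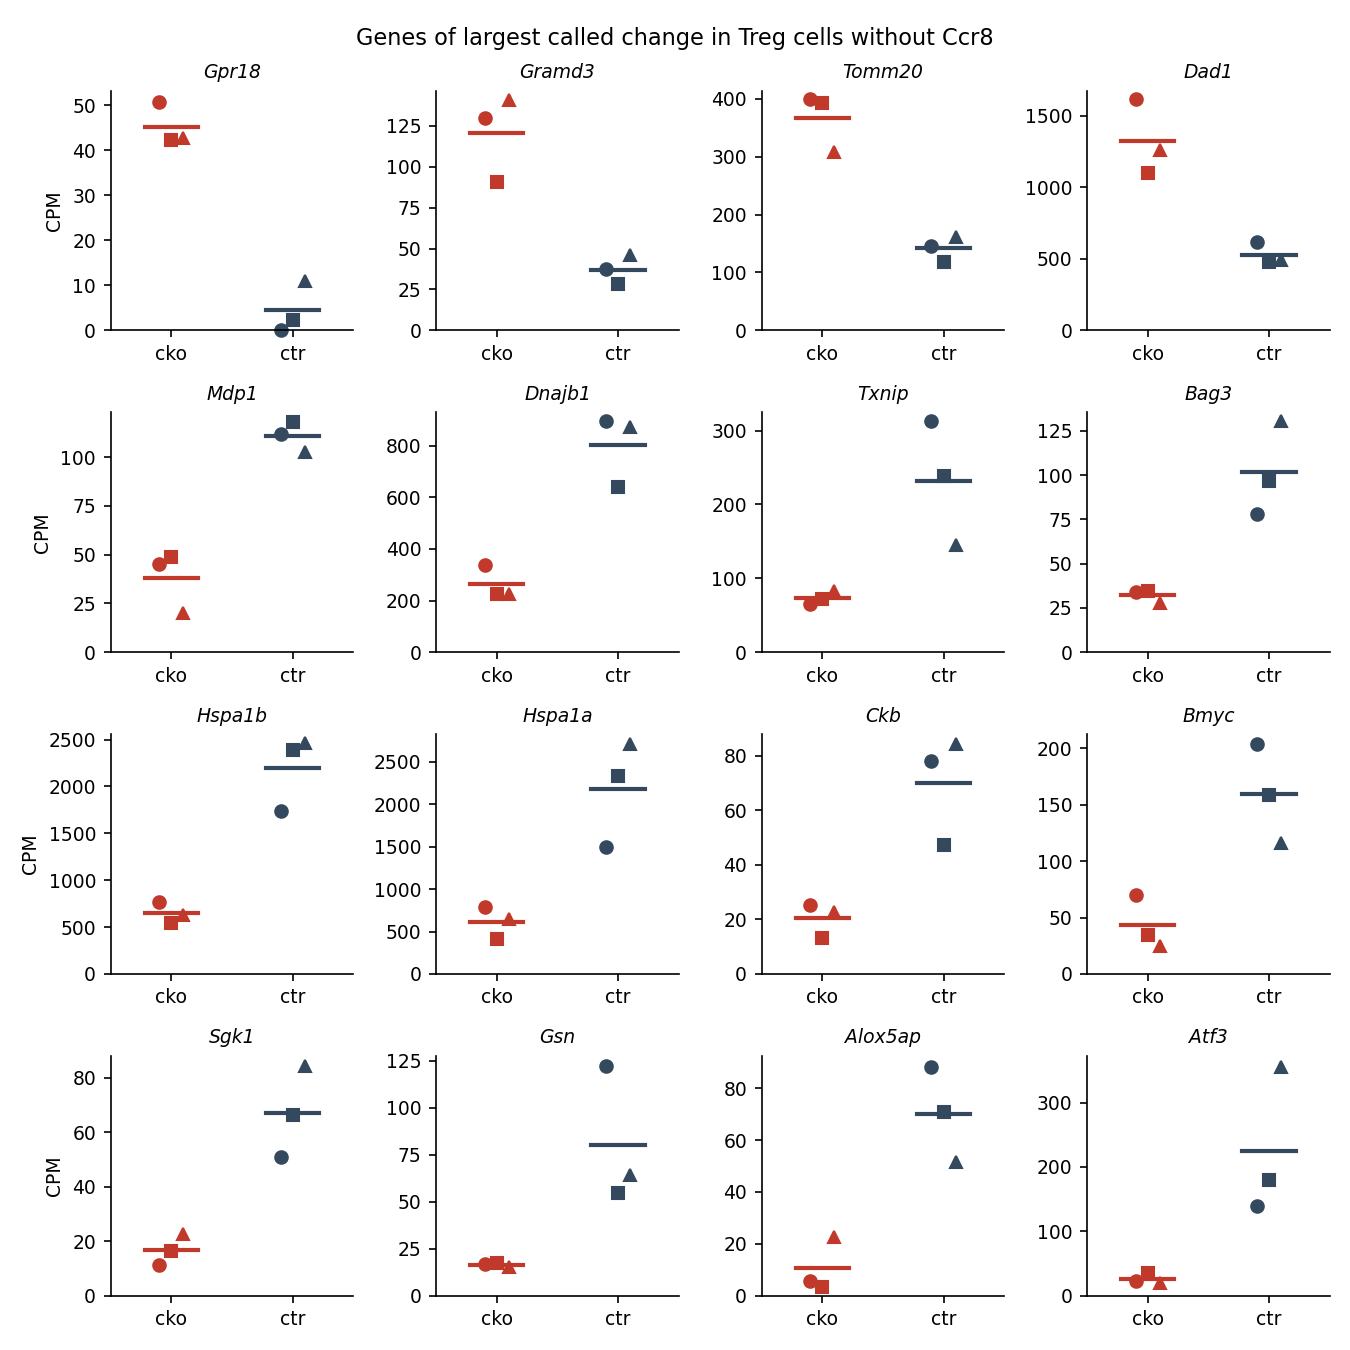
Level in CPM (vertical axis) of the 4 higher and 12 lower genes named for cko (left) against ctr (right) in Treg cells without Ccr8, one marker per sample and a line at the mean of 3. No gene shown overlaps between the genotypes, because lack of overlap was a condition for naming these genes.

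Transcripts of other cell types moved with genotype in the members. The summed level of 20 macrophage genes was 1844, 857 and 2026 CPM in cko and 3695, 5495 and 3957 CPM in ctr members, all 13 tested genes lay below 0 (median -1.48) and none passed. In Ccr8-positive Treg cells the sum was 1676 to 2093 CPM in cko and 2615 to 4757 CPM in ctr samples. B and dendritic cell genes summed to 3610, 1785 and 2059 CPM in cko and 5009, 7771 and 4121 CPM in ctr members (4 tested, none passed, median -1.29). With DESeq2 Apoe and C1qa of the macrophage list and Cd74 and H2-Ab1 of the B and dendritic cell list fell. The calls were repeated without 61 members (14.2%) that carried at least 2 of 6 myeloid genes or more than 1 β chain. These possible doublets were uneven among samples. They were 2, 10 and 9 of 64, 103 and 56 cko members. Of 52, 62 and 94 ctr members they were 15, 7 and 18. Without the possible doublets the B and dendritic cell median turned to 1.57, with all 4 tested genes above 0. The macrophage median was -0.63 over 6 genes. Then 4 genes passed, all among the 21, namely Dnajb1 (-1.63), Hspa1a (-1.97), Hspa1b (-1.80) and Tomm20 (1.33), and 18 of the 18 that were tested again kept their sign. Dnajb1, Tomm20 and Hspa1b also passed with cko 1 and cko 3 added together, where 5 genes passed and 4 of them were among the 21, Bmyc being the other.

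Lists of the remaining cell types gave no call. CD8 and NK genes summed to 1740, 1020 and 3056 CPM in cko and 1790, 1229 and 2427 CPM in ctr members (6 tested, none passed, median -0.36), and γδ T cell genes to 31.0, 52.0 and 5.03 CPM in cko and 0, 0 and 3.67 CPM in ctr members, with none tested. In the γδ sum all cko samples were above all ctr samples. That list holds Il17a, which was found in 1, 2 and 0 cko members and in 0, 0 and 0 ctr members. How far Il17a sets the sum was not tested. The tumour cell list summed to 593 to 969 CPM in cko and 747 to 929 CPM in ctr members. In Ccr8-positive Treg cells the sum was 625 to 1039 CPM in cko and 819 to 1003 CPM in ctr samples. In conventional cells it was 685 to 988 CPM and 742 to 863 CPM. The list also holds Thy1, which is not limited to tumour cells, so the sum is no measure of tumour RNA. Of that list Krt8, Krt19, Cldn7, Tm4sf1 and Sparc were at 0 in members, and only 1 gene was tested (log2 fold change -0.04).

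The main Treg effector genes did not pass the test between genotypes. Of 28 tested tumour effector Treg genes none rose or fell (median -0.24), and of 26 tested Treg identity genes Izumo1r alone fell (median -0.06). Klrg1, a receptor of terminally differentiated Treg cells, stood at 33.8, 37.9 and 42.8 CPM in the cko samples, against 54.3, 191 and 93.6 CPM in the ctr samples. All cko samples were below all ctr samples, with log2 fold change -1.59, SE 0.41, adjusted p = 0.212. It passed in 2 of 16 alternatives. In Ccr8-positive Treg cells Klrg1 fell by 1.82 (adjusted p = 0.0096). Cd81, a tetraspanin of cell contacts, was at 78.8, 196 and 35.2 CPM in the cko samples, against 136, 203 and 244 CPM in the ctr samples, with overlap (log2 fold change -0.86, SE 0.59, adjusted p = 0.729), and fell by 1.53 in Ccr8-positive cells (adjusted p = 0.0429). In members Cd81 depended on the setting. It passed without cko 2 (-1.81, adjusted p = 0.0261), thinned to 2500 UMIs (-2.36, adjusted p = 0.0059) and at 4000 to 8000 UMIs (-2.03, adjusted p = 0.000503), and was at 0.26 where Foxp3 was required. Il10, the suppressive cytokine gene, stood at 22.5, 17.3 and 118 CPM in the cko samples, against 47.5, 44.9 and 66.1 CPM in the ctr samples (log2 fold change -0.14, SE 0.79, adjusted p = 0.983). Ctla4, Tnfrsf18, Icos, Entpd1 and Nt5e had log2 fold changes of -0.04, -0.54, 0.36, -0.03 and -0.63, and none passed. Tnfrsf18, whose levels are given above, was lower in all cko than in all ctr samples.

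In several inflammatory genes cko 1 and cko 3 were high and cko 2 was near the ctr samples. Gzmb, which encodes granzyme B, stood at 1070.1, 292 and 1248 CPM in the cko samples, against 492, 156 and 307 CPM in the ctr samples (log2 fold change 1.44, SE 0.72, adjusted p = 0.655). Ccr2 was at 431, 132 and 403 CPM in the cko samples, against 95.1, 206 and 116 CPM in the ctr samples (log2 fold change 1.17, SE 0.54, adjusted p = 0.587). Socs1, the brake on interferon and cytokine signals, stood at 509.7, 228 and 443 CPM in the cko samples, against 173, 213 and 174 CPM in the ctr samples (log2 fold change 1.05, SE 0.28, adjusted p = 0.212). The 2 high samples are those that share clones, and in Gzmb and Ccr2 the genotypes overlapped.

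Cko 2 stood apart in genes of dividing cells. Mki67, the proliferation marker, was at 22.5, 246 and 27.7 CPM in the cko samples, against 57.7, 109 and 55.1 CPM in the ctr samples (log2 fold change 0.54, SE 1.04, adjusted p = 0.927). Summed cell cycle genes were at 1504, 5836 and 1566 CPM in cko and 2031, 2155 and 1836 CPM in ctr members. All 18 tested cell cycle genes had a log2 fold change above 0 (median 0.77) and none passed, but without cko 2 the median was -0.42 with 13 of 17 below 0. Cko 1 and cko 3 were below every ctr sample in the sum. Tcf7 stood at 28.2, 93.1 and 52.9 CPM in the cko samples, against 17.0, 18.9 and 34.9 CPM in the ctr samples (log2 fold change 1.31, SE 0.43, adjusted p = 0.36) and S1pr1 had log2 fold change 1.21, SE 0.38, adjusted p = 0.293. None of 16 resting and homing genes passed, with a median of 0.31.

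The remaining lists gave few calls. Among 13 chemokine and lipid receptors Gpr18 alone rose (median 0.42). None of 27 interferon response genes (median -0.05), of 22 T cell receptor and activation genes (median -0.0035) or of 16 helper and effector genes (median -0.15) passed. Batf, a factor of effector Treg cells, stood at 163, 254 and 161 CPM in the cko samples, against 71.3, 85.1 and 110.1 CPM in the ctr samples, without overlap, and missed the threshold (log2 fold change 1.10, SE 0.25, adjusted p = 0.0848). In Ccr8-positive Treg cells it rose by 1.15 (adjusted p = 0.0181).

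The genotype effect in members differed from that in Ccr8-positive Treg cells for 2 of 8754 genes, both lower (0.0228%), while 382 had an unadjusted p under 0.05. The values are differences between the log2 fold changes of the 2 classes. In Ccr8-positive cells Atf3 stood at 99.5, 87.6 and 71.4 CPM in the cko samples, against 98.2, 139.7 and 159 CPM in the ctr samples, where the genotypes were closer than in members (difference -2.37, SE 0.28, adjusted p = 0.000149). Cxcl10, an interferon-induced chemokine gene, was at 53.5, 123 and 83.1 CPM in cko and 67.9, 385 and 226 CPM in ctr members, against 47.6, 116 and 79.8 CPM in cko and 24.4, 139 and 106 CPM in ctr Ccr8-positive cells (difference -1.24, SE 0.21, adjusted p = 0.0268). Neither passed without possible doublets, where the differences were -1.90 and -0.43, and the Atf3 difference was -0.05 with cells thinned to 2500 UMIs. With cko 1 and cko 3 added together both passed, at -2.35 and -1.29.

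Against conventional CD4 cells the genotype effect in members differed for 11 genes in each direction of 7046 (0.156% each), and 524 had an unadjusted p under 0.05. The conventional class may hold Treg cells, as said above. Of the 6 genes with the smallest p, Socs1 alone passed in 15 of 15 alternatives (highest adjusted p = 0.0134). In conventional cells it stood at 119, 63.7 and 128 CPM in the cko samples, against 158, 164 and 180.2 CPM in the ctr samples, lower in all cko than in all ctr samples, where in members it was higher (difference 1.80, SE 0.23, adjusted p = 0.000589). In conventional cells Ccr2 had 129.8, 79.6 and 136 CPM in the cko samples, against 145, 169 and 108 CPM in the ctr samples, and the difference was 1.43 (adjusted p = 0.0443). Cxcr6, a receptor that keeps T cells in tissue, was at 422, 278 and 403 CPM in cko and 482, 730.3 and 688 CPM in ctr members, against 502, 281 and 605 CPM in cko and 265, 259 and 251 CPM in ctr conventional cells. In members all cko samples were below, and in conventional cells above, the ctr samples (difference -1.53, SE 0.21, adjusted p = 0.00084). Cd69 stood at 653, 415 and 659 CPM in cko and 339.6, 288 and 441 CPM in ctr members, against 463, 257 and 334 CPM in cko and 597, 445 and 498 CPM in ctr conventional cells (difference 1.27, SE 0.20, adjusted p = 0.00465). Conventional cells had Tnfrsf4 at 467, 287 and 536 CPM in the cko samples, against 262, 288 and 209 CPM in the ctr samples, and its difference was -0.93 (adjusted p = 0.0175).

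Dad1, Tomm20 and Gramd3 differed too, by 1.26, 1.25 and 1.28. Against Ccr8-positive Treg cells none of these genes was called different, so their rise is not shown to be particular to members. In conventional cells Dad1 was at 386, 438 and 439 CPM in the cko samples, against 354, 367 and 469 CPM in the ctr samples and Tomm20 at 214, 198 and 201 CPM in the cko samples, against 212, 129.7 and 215 CPM in the ctr samples, both with overlap. Cst3, which encodes cystatin C and is abundant in myeloid cells, had a difference of -1.70 (adjusted p = 0.00118), but -0.35 without possible doublets and 0.02 after thinning. Il17a rests on 1, 2 and 0 cells in cko and 0, 0 and 0 cells in ctr members, and on 8 and 12 conventional cells in cko and ctr. Its adjusted p was 0.00705, and its fitted fold change gives no bound because no ctr member had a count.

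**Figure D4:**
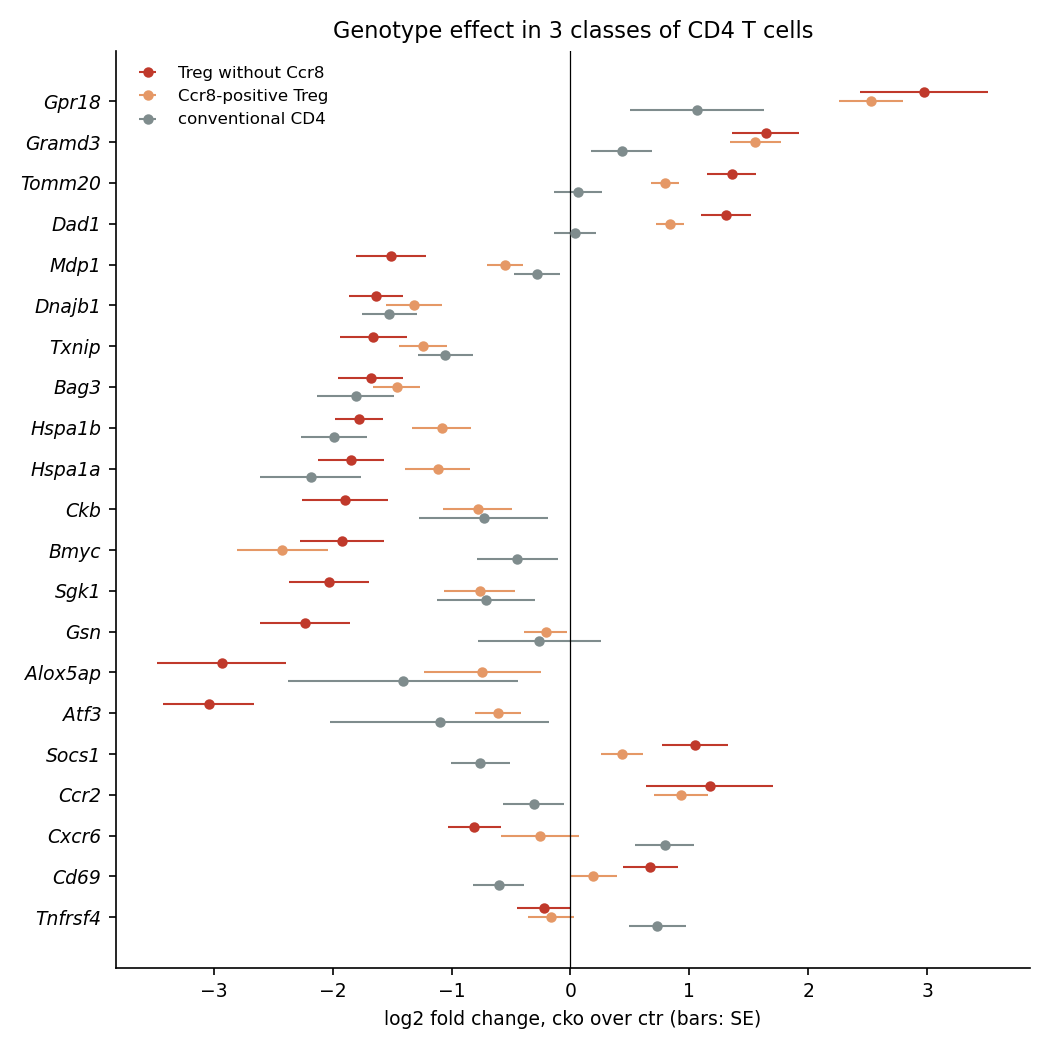
Log2 fold change of cko over ctr (horizontal axis, bars are SE) for the genes named between genotypes and 5 genes of the differences between classes, in Treg cells without Ccr8, Ccr8-positive Treg cells and conventional CD4 cells. Socs1 and Cxcr6 lie on opposite sides of 0 in members and conventional cells.

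Members belonged in part to clones that also held Ccr8-positive Treg cells. Paired chains were found in 59, 85 and 45 members of the cko samples, in 45, 81 and 38 clonotypes, and in 51, 59 and 83 members of the ctr samples, in 44, 47 and 59 clonotypes. The clonotype also held Ccr8-positive Treg cells of the same sample for 30.5, 17.6 and 40.0% of these members in cko and 51.0, 57.6 and 67.5% in ctr samples. The genotypes did not overlap, with means of 29.4% ± 11.2 and 58.7% ± 8.30 (SD, n = 3 each). The difference was -29.3 points, and -28.2 points with cko 1 and cko 3 added together. The exact permutation p, with cko 1 and cko 3 taken as separate samples, was 0.1, the smallest possible, and 0.3 when adjusted over 6 measures. Those 6 include the share of Treg cells without Ccr8, which is given above with no test. Without that share the adjusted value would be larger. Clonotype A above, with 8 members beside 15 Ccr8-positive cells in ctr 3, had the most members of any clonotype that held both classes. The ctr samples also offered more Ccr8-positive cells to match, 310, 342 and 380 with paired chains, against 87, 100 and 136 in cko samples.

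A measure that does not depend on cell number did not separate the genotypes. The chance that 1 member and 1 Ccr8-positive Treg cell shared a clonotype was 1.27, 0.318 and 1.14% in cko and 0.898, 0.922 and 1.47% in ctr samples (exact permutation p = 0.8). The chance that 2 members shared a clonotype was 1.11, 0.140 and 1.21% in cko and 1.02, 0.994 and 1.79% in ctr samples, with means of 0.821% ± 0.592 and 1.27% ± 0.454 (SD, n = 3 each; exact permutation p = 0.6). Cko 2, in which 81 clonotypes covered 85 members, was lowest on both. Clonotypes of members also held conventional CD4 cells for 10.2, 4.71 and 11.1% of members in cko samples. In ctr samples the share was 0, 3.39 and 8.43%, with overlap (exact permutation p = 0.2). This share depends on cell number, and conventional cells with paired chains numbered 108, 163 and 112 in cko and 57, 34 and 144 in ctr samples. The chance that 1 member and 1 conventional cell shared a clonotype was 0.204, 0.0433 and 0.159% in cko samples. In ctr samples that chance was 0, 0.0997 and 0.0586% (exact permutation p = 0.3).

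Over all 6 samples, clonal expansion was not shown to differ between members and Ccr8-positive Treg cells. The chance that 2 cells shared a clonotype averaged 1.04% ± 0.532 in members and 1.25% ± 0.850 in Ccr8-positive cells (SD, n = 6; exact sign-flip permutation p = 0.625, where the smallest possible is 0.03125). The clonotype also held the other Treg class for 44.0% of members and 28.1% of Ccr8-positive cells on average. It was higher for members in 5 of 6 samples (exact sign-flip permutation p = 0.09375). This share depends on how many cells the other class holds, and in each sample members had more such cells to match. In cko 1 and cko 2, where the class sizes were closest, it was 30.5 and 17.6% of members. For Ccr8-positive cells it was 34.5 and 16.0% there. Conventional CD4 cells were found in the clonotypes of 6.30% of members and 9.63% of Ccr8-positive cells (exact sign-flip permutation p = 0.4375).

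**Figure D5:**
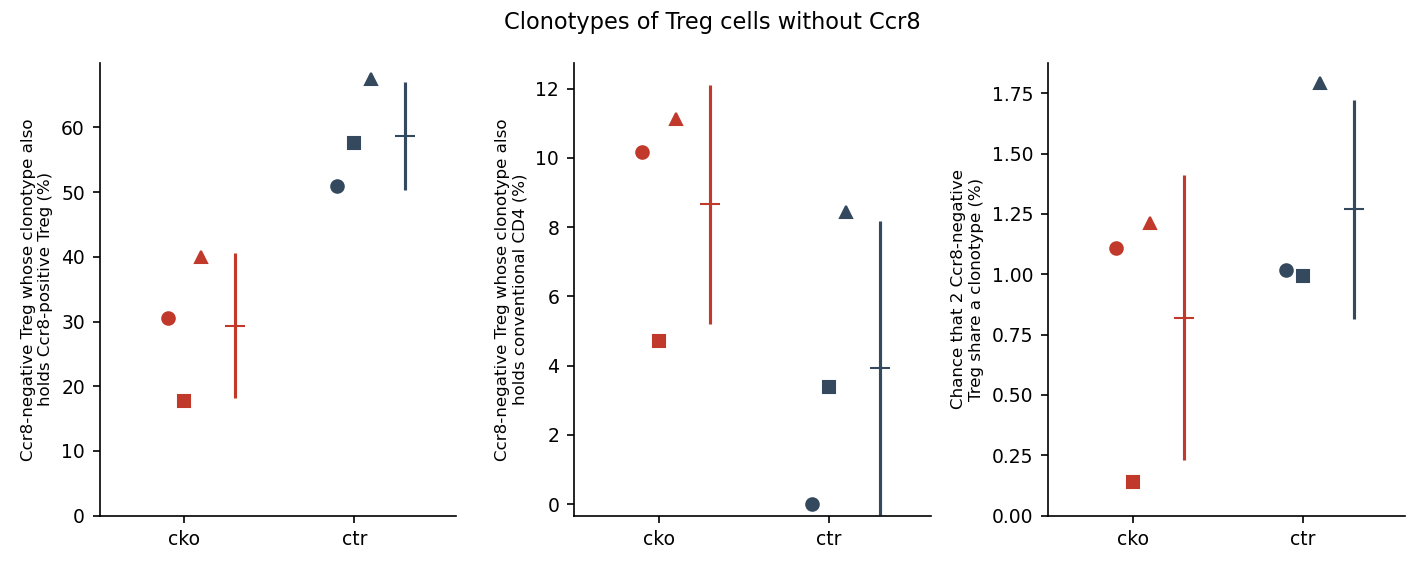
Percent of members whose clonotype also holds Ccr8-positive Treg cells (left) or conventional CD4 cells (middle) and the chance that 2 members share a clonotype (right, percent), one marker per sample with mean and SD, for cko and ctr. Only the left measure has no overlap between genotypes.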

How the data were processed

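The deposited matrices hold UMI counts per gene and barcode as the authors made them, with Cell Ranger 7.0.0 on GRCm38 (mm10), per the submitters' processing notes, from 5′ libraries with T cell receptor enrichment, per the labels' protocols. The sources used here do not say whether doublets or free RNA were removed upstream, or whether counting used the strand. Filters on barcodes were a minimum of 300 genes and of 500 UMIs and a mitochondrial share of up to 10%. No doublet caller was run; cells with UMIs of at least 2 of 6 myeloid genes or with more than 1 TRB chain were left out as an alternative.

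Counts were summed per sample and class (at least 20 cells in each) and compared with edgeR 4.0.16 (limma 3.58.1, R 4.3.3; TMM scaling, filterByExpr, robust quasi-likelihood fit), with Benjamini-Hochberg adjustment over all genes tested and calls at an adjusted p under 0.05. Fold changes (log2) put cko over ctr, or members over the other class with the sample as a block; interactions subtract 2 such changes. Single values per sample went into exact permutation tests, two-sided (20 assignments) in Python 3.11.15 with numpy 2.4.6, scipy 1.17.1 and pandas 2.3.3. The labels call the 3 samples of a group biological replicates, and a p-value reflects only the spread among them. Scripts were tested on simulated data. Same-numbered samples did not deviate together (correlations -0.106, -0.0592 and 0.0415), so numbers were not used as pairs.

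The members, 14 gene lists and 34 key genes were chosen with earlier results of these data known, and patterns those results already show are no independent support. Named were the key genes, up to 12 higher and 12 lower genes between genotypes (mean CPM of at least 20 in 1 group, no overlap), up to 8 in each direction against Ccr8-positive cells (same sign in all 6 samples), up to 6 by p in each interaction, and list members that passed. Some genes within this rule are not reported here. Coordinates come from a GRCm38 annotation in which 32158 of 32285 identifiers were found. Alternatives were DESeq2 1.42.0, its size factors, no filter on low counts, leaving out each sample, and cko 1 and cko 3 added together. Others were stricter Treg rules, thinning with the rule applied again, and possible doublets left out.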

Additional observations from a re-analysis of the deposited data

Results flagged for a closer look

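By a test of the difference itself, the genotype effect differed between Treg cells without Ccr8 and another CD4 class in 12 named cases. The test called 2 of 8754 genes (0.0228%) against Ccr8-positive Treg cells and 22 of 7046 (0.312%) against conventional CD4 cells. All values are differences of log2 fold changes of cko over ctr, and no explanation was tested. Against Ccr8-positive Treg cells the difference was -2.37 for Atf3 and -1.24 for Cxcl10. Neither passed without possible doublets, where Cxcl10 was at -0.43, and Atf3 was at -0.05 with thinned cells. Against conventional CD4 cells the difference was 1.80 for Socs1, 1.43 for Ccr2, 1.28 for Gramd3, 1.27 for Cd69, 1.26 for Dad1 and 1.25 for Tomm20. It was -0.93 for Tnfrsf4, -1.53 for Cxcr6 and -1.70 for Cst3, whose value with thinned cells was 0.02. For Il17a it was 7.12, fitted on 3 cko members and 0 ctr members with a UMI, so its size depends on the prior count.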

How the results depend on the processing

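All 21 genes called between cko and ctr members kept their sign wherever they were tested again, but their number moved from 21 to 34 with DESeq2, 225 with no filter, 5 with cko 1 and cko 3 added, 0 of 2552 tested where Foxp3 was required (158 at an unadjusted p under 0.05), 4 without possible doublets, 51 at 4000 to 8000 UMIs (chosen after seeing the data), 26 thinned, and 1 (without cko 3) to 64 (without cko 2) when a sample was left out, with 8 without ctr 2 and 5 without ctr 3. The replicate block gave 33 calls, 18 of them shared; numbers do not pair the samples, and permutation within numbers gave exact p of 0.25 to 0.75 over 8 assignments. Against Ccr8-positive cells 225 calls became 137 with DESeq2, 511 with no filter, 7 thinned, 66 with at least 3 Treg genes, 48 with Foxp3 required, 37 at 4000 to 8000 UMIs, and 90 (without ctr 2) to 353 (without cko 2), with 111 without ctr 1, 143 without ctr 3, 145 without cko 1 and 107 without cko 3. The 2 genotype differences against Ccr8-positive cells became 4 with DESeq2 size factors, 43 with no filter, 0 thinned, 4 with at least 3 Treg genes, 0 with Foxp3 required, 1 without possible doublets and 2 to 6 with a sample left out (5 without ctr 1, ctr 2 or cko 1, 4 without ctr 3, 6 without cko 2). Where 0 passed in edgeR, 135 of 2527 tested genes thinned and 234 of 5277 with Foxp3 had an unadjusted p under 0.05. The 22 against conventional cells became 12 with DESeq2, 90 with no filter, 11 with cko 1 and cko 3 added, 12 thinned, 7 with at least 3 Treg genes, 4 with Foxp3 required, 14 without possible doublets and 5 to 21 with a sample left out (5 without ctr 3 or cko 3, 9 without cko 1). Cst3 turned to 0.0193 when thinned. The difference in the share of Treg cells without Ccr8 was 23.2 points at 1500 UMIs, 22.9 unthinned and 25.5 to 33.6 with a sample left out. Members per 100 CD4 cells reversed to -0.209 with at least 3 Treg genes and -2.45 thinned, and ran from -0.0964 (without cko 2) to 3.61 (without cko 3). Per 100 kept cells they reversed to -0.0712 with at least 3 Treg genes and ran from -0.182 (without cko 2) to 0.254 (without cko 3), with -0.0343 without ctr 1. The share with conventional clonotypes fell to a difference of 0.232 with at least 3 Treg genes. The causes were not tested. Members numbered as few as 52 in a sample, so calls can rest on few cells, as for Gpr18 with 0, 1 and 6 ctr members, and no detection limit was measured.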
